A study of Mus musculus with 4 samples.

Results

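The gluconeogenesis enzymes are 6 genes, Pck1, Fbp1, G6pc, Pcx, Slc37a4 and Pklr. They were taken by symbol from the 19465 genes of a spatial transcript assay (Visium) of fixed mouse liver. The list was drawn up with earlier results of these data known. All 6 were found, and all 6 passed the filter on low counts in each of the 12 comparisons made. The 4 sections, each from a separate mouse, fell into 3 groups. A PDGFRBcreERT2/Hk2fl/fl mouse gave the Hk2-deleted fibrotic section (n = 1) after carbon tetrachloride (CCl4), a toxin that injures pericentral hepatocytes. The fibrotic sections (n = 2) came from HK2fl/fl mice given CCl4, and the healthy section (n = 1) from an HK2fl/fl mouse given olive oil. All mice, with or without Cre, had received tamoxifen at 75 mg/kg on 5 days with a wait of 2 weeks, and were labelled male and 5 months old. CCl4 was injected at 1 µL/g, 2 times a week, for 6 weeks in the design text and for 4 or 6 weeks in the sample protocol. The Cre is driven by the Pdgfrb promoter, active in stellate cells and other mural cells, so hepatocytes keep Hk2.

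Gluconeogenesis makes glucose from lactate, amino acids and glycerol, and the liver exports that glucose during fasting. Glucagon raises and insulin lowers the transcription of its key enzymes. In the liver lobule it is known as a task of the periportal hepatocytes, those near the incoming blood, while glycolysis and lipogenesis lie nearer the central vein. Pcx (pyruvate carboxylase) starts the route by turning pyruvate into oxaloacetate in mitochondria. Pck1 (cytosolic phosphoenolpyruvate carboxykinase) turns oxaloacetate into phosphoenolpyruvate. Fbp1 (fructose-1,6-bisphosphatase) bypasses the phosphofructokinase step. Slc37a4 carries glucose-6-phosphate into the endoplasmic reticulum, where G6pc, the catalytic subunit of glucose-6-phosphatase, frees glucose. Pklr (liver pyruvate kinase) catalyses the opposite, glycolytic reaction from phosphoenolpyruvate to pyruvate.

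In the GRCm38.p6 annotation of RefSeq, Pck1 spans chromosome 2 from 173153073 to 173159274 and Pklr chromosome 3 from 89136122 to 89146815. Slc37a4 spans chromosome 9 from 44396946 to 44402966 and G6pc chromosome 11 from 101367716 to 101377903. Fbp1 lies on chromosome 13 from 62864753 to 62888298 and Pcx on chromosome 19 from 4510472 to 4621752. Which exons or UTRs the assay's probes target is not given in the sources used here. Shown next are the 250 bases before the start of Pck1, of G6pc and of the second annotated start of Pklr, because these genes moved in different ways across the lobule, as described below. They come from RefSeq (GRCm38.p6), plus strand, 5′ to 3′, with motif matches in capitals.
Pck1, chr2:173152823-173153072: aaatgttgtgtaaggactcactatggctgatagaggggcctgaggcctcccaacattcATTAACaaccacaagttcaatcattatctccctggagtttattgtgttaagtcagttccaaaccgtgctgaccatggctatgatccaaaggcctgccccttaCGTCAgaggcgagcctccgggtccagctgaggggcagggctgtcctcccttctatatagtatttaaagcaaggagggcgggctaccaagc
G6pc, chr11:101367466-101367715: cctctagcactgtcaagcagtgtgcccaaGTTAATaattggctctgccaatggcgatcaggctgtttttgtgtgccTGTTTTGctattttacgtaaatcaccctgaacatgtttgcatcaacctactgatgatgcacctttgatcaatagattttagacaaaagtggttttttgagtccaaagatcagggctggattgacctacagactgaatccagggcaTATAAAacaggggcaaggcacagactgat
Pklr, chr3:89136373-89136622: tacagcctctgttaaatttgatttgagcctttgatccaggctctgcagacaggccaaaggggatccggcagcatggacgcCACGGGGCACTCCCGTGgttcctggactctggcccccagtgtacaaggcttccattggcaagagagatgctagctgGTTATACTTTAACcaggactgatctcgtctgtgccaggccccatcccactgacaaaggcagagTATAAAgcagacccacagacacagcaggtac

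The motifs were chosen with these sequences in view and searched on both strands in the 250 bases before 32851 annotated starts; none of the matches shown overlapped another. The Pck1 window held CGTCA, the core of the cAMP response element known from the rat gene, which 17.8% of all windows hold. It also held GTTAAT, an HNF1 half-site, on the minus strand (6.43% of windows). The G6pc window held GTTAAT on the plus strand, TGTTTTG, the core of the forkhead element of insulin response (5.56%), and TATAAA, the TATA box (12.4%). The Pklr window held TATAAA, the full HNF1 motif (0.17%) and the carbohydrate response element known from the rat gene. That last motif occurred in 1 of the 32851 windows, the Pklr window shown. The E-box CACGTG (6.02% of windows) was in none of the 3 windows shown; of the other members' windows, the first of 2 for Pcx held it. A match is a description of letters, and binding was not measured.

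Section totals ranged from 40585039 to 67479047 unique molecular identifiers (UMIs, each standing for a captured molecule), over 2577 to 4134 spots. Levels below are in CPM, the UMIs of a gene scaled to the same total in every section or spot class. Each member had between 3319 and 112638 UMIs per section, and the exact 95% Poisson interval of a whole-section level reached at most 3.46% of that level to either side, for counting error only. Levels are not compared between genes, since probes differ. The 10 hepatocyte markers, Alb (albumin) among them, made up 16.5% of UMIs in the Hk2-deleted section, 21.6% and 20.2% in fibrotic replicates 1 and 2, and 24.9% in the healthy section. Hk2 itself stood at 3.5 CPM in the Hk2-deleted section, 4.88 and 3.94 in fibrotic replicates 1 and 2, and 1.85 in the healthy section. Fibrotic replicate 1 is labelled male but had 0.415 CPM of Ddx3y and 0.578 CPM of Eif2s3y, both Y-linked, against 47.0 to 52.4 and 62.1 to 69.9 in the other sections. Counts of members called that use it are therefore given with and without it. In the Hk2-deleted section 27.2% of spots lay in Saa3-rich neighbourhoods, against 2.03% and 0% in fibrotic replicates 1 and 2 and 0.359% in the healthy section.

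CCl4-treated and healthy livers were first compared over whole sections, to ask how fibrosis changes the route as a whole. None of the 6 members passed the test. The whole-section levels of G6pc and Pklr were below the healthy level in all 3 CCl4 sections, while Pck1 differed more between the fibrotic sections than from the healthy one. G6pc had 218 CPM in the Hk2-deleted section, 218 and 345 in fibrotic replicates 1 and 2, and 426 in the healthy section. Pklr had 261, then 237 and 231 in the fibrotic replicates, and 285 in the healthy section. Pck1 had 1371 in the Hk2-deleted section, 1117 and 1859 in the fibrotic replicates, and 1617 in the healthy section. The healthy level of Pck1 thus lay between the levels of the 2 fibrotic sections, which differed 1.66-fold. Pcx had 662 in the Hk2-deleted section, 465 and 488 in the fibrotic replicates, and 480 in the healthy section. Fbp1 had 1728, then 1451 and 1718 in the fibrotic replicates, and 1287 in the healthy section. Slc37a4 had 108.5, then 87.7 and 81.8 in the fibrotic replicates, and 71.7 in the healthy section. The CCl4 sections were thus all above the healthy one for Fbp1 and Slc37a4, on this scale of total UMIs. How many of all genes had their CCl4 sections all on 1 side of the healthy one was not counted. Fewer hepatocytes and less RNA per hepatocyte cannot be told apart in such sums.

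**Figure D1:**
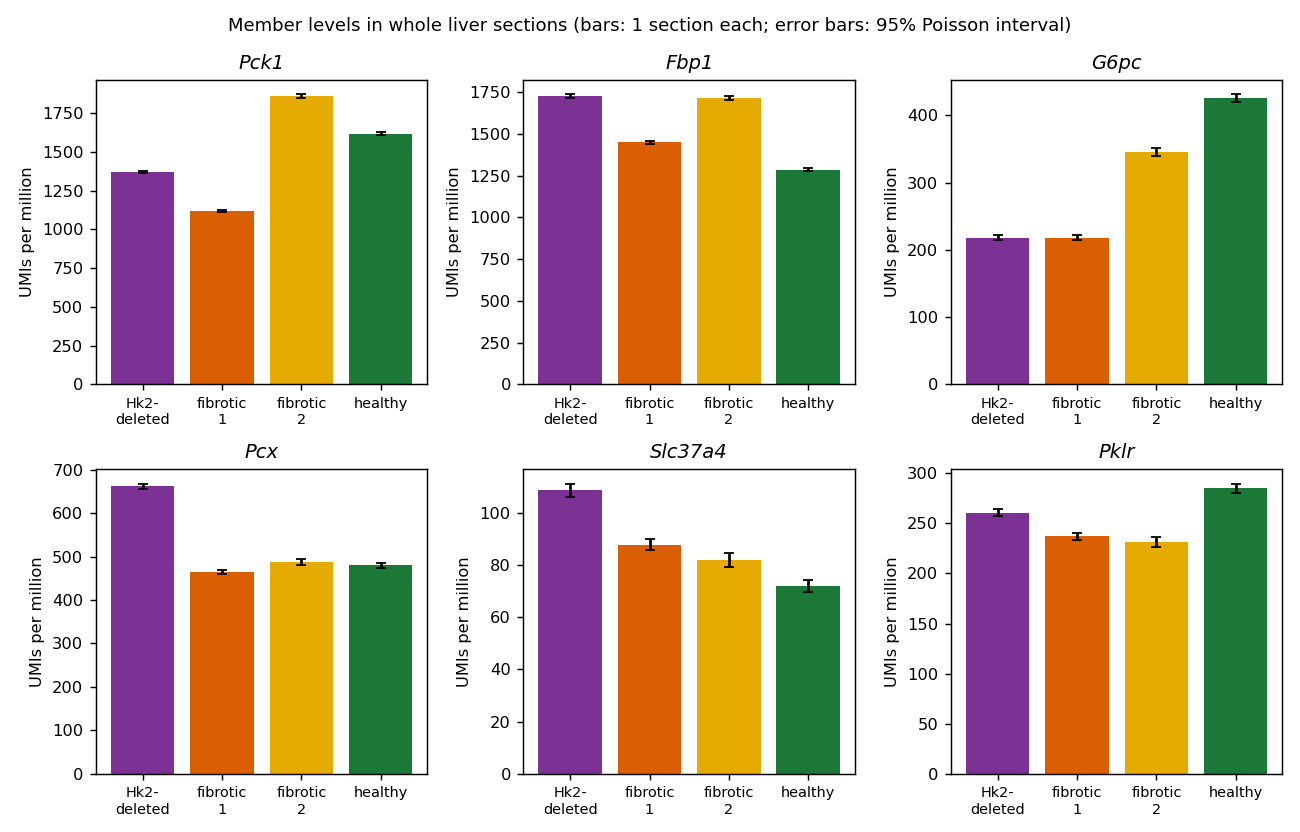
Each panel shows 1 gene, with its level in CPM (y axis) in each of the 4 whole sections, fibrotic 1 and 2 being the replicates. Bars are single sections and error bars exact 95% Poisson intervals. The G6pc bars of the 3 CCl4 sections lie between 218 and 345, below 426 in the healthy section, while the Pck1 bars of the fibrotic sections lie on both sides of the healthy one.

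The edgeR quasi-likelihood test of the 2 fibrotic sections against the healthy one called 0 of 6 members, at a Benjamini-Hochberg adjusted p under 0.05, against 13.7% of the 14125 genes tested. The log2 fold change was -0.91 ± 0.33 for G6pc (SE; adjusted p = 0.0782) and -0.61 ± 0.28 for Pklr (adjusted p = 0.16). For Pck1 it was -0.43 ± 0.48 (adjusted p = 0.609), and for Pcx -0.34 ± 0.34 (adjusted p = 0.559). Fbp1, at -0.02 ± 0.46, and Slc37a4, at -0.09 ± 0.22, turned positive with scaling to total UMIs, at 0.30 and 0.24, where neither passed. TMM scaling sets the typical gene to no change, whereas on total UMIs the median of all genes lay at 0.34. Scaled to total UMIs or without the filter on low counts, G6pc alone passed (adjusted p = 0.0177 and 0.0189). The share of all genes called in those fits is not reported here, so the pass may not be particular to G6pc. Scaled to the 10 hepatocyte markers, Slc37a4 alone passed, at 0.49 (adjusted p = 0.0488), but the median of all genes was then 0.59 and 5139 of 14175 genes were called. With fibrotic replicate 1 left out, and the Hk2-deleted section and fibrotic replicate 2 set against the healthy one, 0 members passed. G6pc was then at -0.89 (adjusted p = 0.126) and Pklr at -0.52 (adjusted p = 0.127).

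The Hk2-deleted section was compared with the 2 fibrotic sections to ask whether losing Hk2 in Pdgfrb-expressing cells accompanies a change in hepatocyte gluconeogenesis. In whole sections 0 of 6 members passed, against 0.227% of all genes tested (edgeR; 443 genes had an unadjusted p under 0.05, none of them a member, and DESeq2 also called 0 members). The levels of Pcx, Slc37a4, Pklr and Fbp1 were above those of both fibrotic sections, Fbp1 with 1728 CPM against 1718 in fibrotic replicate 2. The share of all genes lying above both was not counted. The log2 fold changes, in the same order, were 0.42 ± 0.34, 0.30 ± 0.22, 0.10 ± 0.29 and 0.06 ± 0.46 (each adjusted p = 0.9998). Pcx and Slc37a4 were at 0.45 and 0.36 without the Saa3-rich spots. G6pc was at -0.45 ± 0.35, but its level in the Hk2-deleted section was that of fibrotic replicate 1. Against fibrotic replicate 1 alone its value was 0.05, and against replicate 2 alone -0.81. Pck1 likewise stood at 0.34 against replicate 1 and -0.59 against replicate 2, with no test possible in those fits. Far from collagen-rich spots, 3 or more steps on the spot grid, 0 of 6 members passed as well, against 0.0536% of genes. There Slc37a4, at 0.28 with TMM, passed when scaled to hepatocyte markers (0.70, adjusted p = 0.0229), a scale on which the median of all genes was 0.40 and 847 of 13180 genes were called.

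Zonation was then read from a lobule score. Each spot was scored by pericentral minus periportal landmark genes, none of them a member, and the spots of each section were split into 3 equal zones. The score ranks spots within a section, so a zone is a relative position. UMIs per spot in the pericentral and periportal zones were 15160 and 18214 in the Hk2-deleted section, 17969 and 13651 in fibrotic replicate 1, 14290 and 16801 in fibrotic replicate 2, and 13491 and 22103 in the healthy section. Over all 4 sections, Pck1, Fbp1 and Slc37a4 were lower pericentrally, 3 of 6 members, against 4.94% of the 13091 genes tested called lower and 10.2% called in either direction.

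Pck1 showed the widest zonal range of the 6 in each CCl4 section, while in the healthy section Fbp1 did. In the pericentral and periportal zones it had 888 and 1790 CPM in the Hk2-deleted section, and 739 and 1691 in fibrotic replicate 1. In fibrotic replicate 2 it had 1140 and 2578, and in the healthy section 1395 and 1809. The pericentral level was lower in all 4 sections. The log2 fold change was -1.14 ± 0.17 (edgeR, adjusted p = 0.00746). Between the outermost of 10 equal bins of the score, Pck1 was 3.05-fold higher at the periportal end in the Hk2-deleted section, 3.83-fold and 3.56-fold in the fibrotic replicates, and 1.54-fold in the healthy section. For Fbp1 the healthy value was 1.61-fold.

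Fbp1 followed the same order. It had 1306 and 2084 CPM in the pericentral and periportal zones of the Hk2-deleted section, and 1129 and 1908 in fibrotic replicate 1. In fibrotic replicate 2 it had 1212 and 2197, and in the healthy section 1089 and 1468. No pericentral value reached any periportal value of Fbp1, and the log2 fold change was -0.88 ± 0.11 (edgeR, adjusted p = 0.00483). Slc37a4 had a shallower but even gradient, 99.0 and 116 CPM in the Hk2-deleted section, 79.0 and 98.2 in fibrotic replicate 1, 74.1 and 89.1 in fibrotic replicate 2, and 62.6 and 79.7 in the healthy section. Its log2 fold change was -0.49 ± 0.05 (edgeR, adjusted p = 0.00325). Scaled to hepatocyte markers it was -0.07 and did not pass (adjusted p = 0.427), and 4 of the 10 hepatocyte markers were themselves called lower pericentrally. On that scale the median of all genes was at 0.42, and on total UMIs at 0.20.

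The other 3 members did not pass over the 4 sections. G6pc was flat in 2 sections, with 340 and 342 CPM in the pericentral and periportal zones of fibrotic replicate 2 and 422 in both zones of the healthy section. In the Hk2-deleted section it had 175 and 253, and in fibrotic replicate 1 it had 186 and 255. Its log2 fold change was -0.45 ± 0.12 (edgeR, adjusted p = 0.0526). Pcx and Pklr changed direction between sections. Pcx had 613 and 701 CPM in the Hk2-deleted section, 438 and 506 in fibrotic replicate 1, and 437 and 542 in fibrotic replicate 2, lower pericentrally in each, but 528 and 471 in the healthy section. Pklr had 278 and 249, 255 and 224, and 260 and 215 in those same CCl4 sections, higher pericentrally in each, but 259 and 310 in the healthy section. Their log2 fold changes were -0.34 ± 0.11 and -0.11 ± 0.08 (adjusted p = 0.0955 and 0.428). On total UMIs Pklr was at 0.09, and scaled to hepatocyte markers at 0.31 (adjusted p = 0.012), below the medians of all genes on those scales given above; on the second, 10189 of 13078 genes were called.

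These calls depended on single sections. Without the healthy section, 5 members passed, Pklr being the exception, and 5244 of 13060 genes were called. Without the Hk2-deleted section or either fibrotic replicate, Slc37a4 was the 1 member that passed, and between 136 and 260 genes were called. The members' counts thus moved with those of all genes. Pck1 then ranged from -1.12 to -1.04, at an adjusted p between 0.0635 and 0.0794, and Fbp1 from -0.88 to -0.80, at an adjusted p between 0.0525 and 0.0614.

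**Figure D2:**
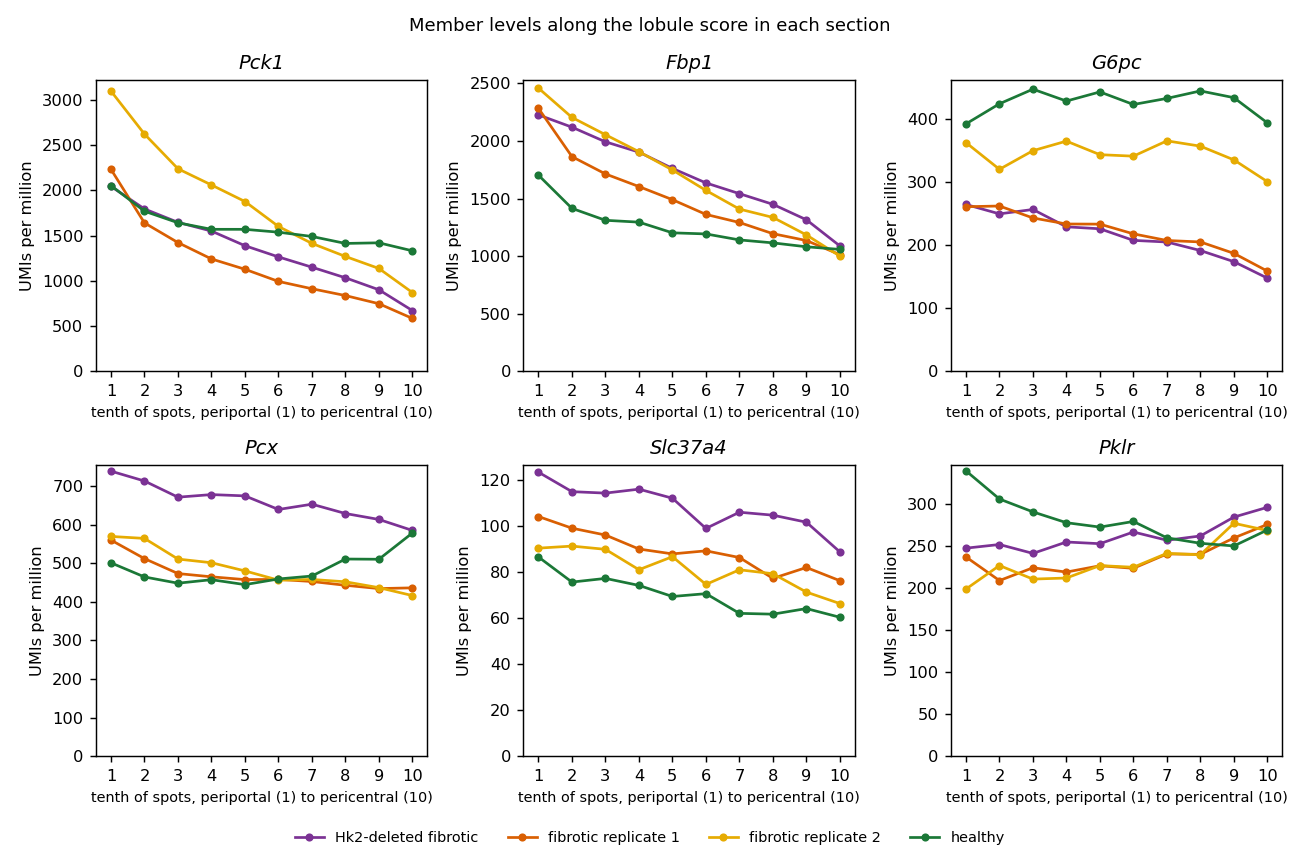
Each panel shows 1 gene, with its level in CPM (y axis) over 10 equal bins of each section's spots ordered by the lobule score, from periportal (1) to pericentral (10). Lines are single sections. Pck1 and Fbp1 end lower than they start in all 4 sections, healthy Pck1 with 2053 in bin 1 and 1331 in bin 10, and Pklr ends lower in the healthy section but higher in the CCl4 sections.

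Whether CCl4 changed the zonal gradient was tested as a zone by treatment term, with the 3 CCl4 sections against the healthy one. The gradients of 5 of 6 members differed, against 18.1% of the 13364 genes tested, 10.2% more negative and 7.83% more positive in the CCl4 sections. The pericentral minus periportal log2 difference was more negative in the CCl4 sections for Pck1, by -0.89 ± 0.10 (edgeR, adjusted p = 0.000196). It was also more negative for Pcx, by -0.53 ± 0.09 (adjusted p = 0.00207), for Fbp1, by -0.46 ± 0.10 (adjusted p = 0.00738), and for G6pc, by -0.47 ± 0.15 (adjusted p = 0.0415). For Pklr, the opposing enzyme, it was more positive, by 0.34 ± 0.09 (adjusted p = 0.0169). The Slc37a4 gradient had a difference of -0.05 ± 0.09 (adjusted p = 0.743). Section by section, the plain log2 ratio of pericentral to periportal Pck1 was -1.01 in the Hk2-deleted section, -1.19 and -1.18 in fibrotic replicates 1 and 2, and -0.37 in the healthy section. For Pcx it was -0.19, then -0.21 and -0.31 in the fibrotic replicates, and 0.16 in the healthy section. For Pklr it was 0.16, then 0.19 and 0.28 in the fibrotic replicates, and -0.26 in the healthy section. The CCl4 and healthy ratios did not overlap for these 3 genes or for Fbp1. They did not overlap for Slc37a4 either, whose healthy ratio was the most negative and whose term did not pass. For G6pc the healthy ratio was the highest, but barely above that of fibrotic replicate 2. The pericentral and periportal levels there were 340 and 342 CPM, against 422 in both zones of the healthy section. The share of all genes with such a separation was not counted.

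Markers of other cells moved with this term. Summed markers of stellate cells and fibroblasts in the pericentral and periportal zones were 2298 and 693 CPM in the Hk2-deleted section, 2583 and 1085 in fibrotic replicate 1, 1531 and 529 in fibrotic replicate 2, and 206 and 193 in the healthy section. In the same test 4 of the 10 hepatocyte markers were called more negative and 0 more positive. The part of either in the members' result was not tested.

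The healthy gradient rests on 1 section, so its animal-to-animal spread was not measured. G6pc in fibrotic replicate 2, with a plain ratio of -0.01, was as flat as in the healthy section, while the Hk2-deleted section had -0.53 and fibrotic replicate 1 -0.46. The G6pc call was lost on total UMIs (-0.33, adjusted p = 0.132), in DESeq2 (adjusted p = 0.449) and without the Hk2-deleted section (-0.38, adjusted p = 0.0645). The Pklr call was lost in DESeq2 (adjusted p = 0.0839) and with hepatocyte marker scaling (adjusted p = 0.204). Without fibrotic replicate 1 all 5 calls were made again, with the share of all genes called then not reported here. Between the Hk2-deleted and the fibrotic sections 0 of 6 gradients passed, against 0.0975% of genes (edgeR; 647 genes had an unadjusted p under 0.05, and DESeq2 called 0 genes). Of those 647, 2 were members, Pck1 at 0.19 and G6pc at -0.28, both with an adjusted p of 0.996.

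**Figure D3:**
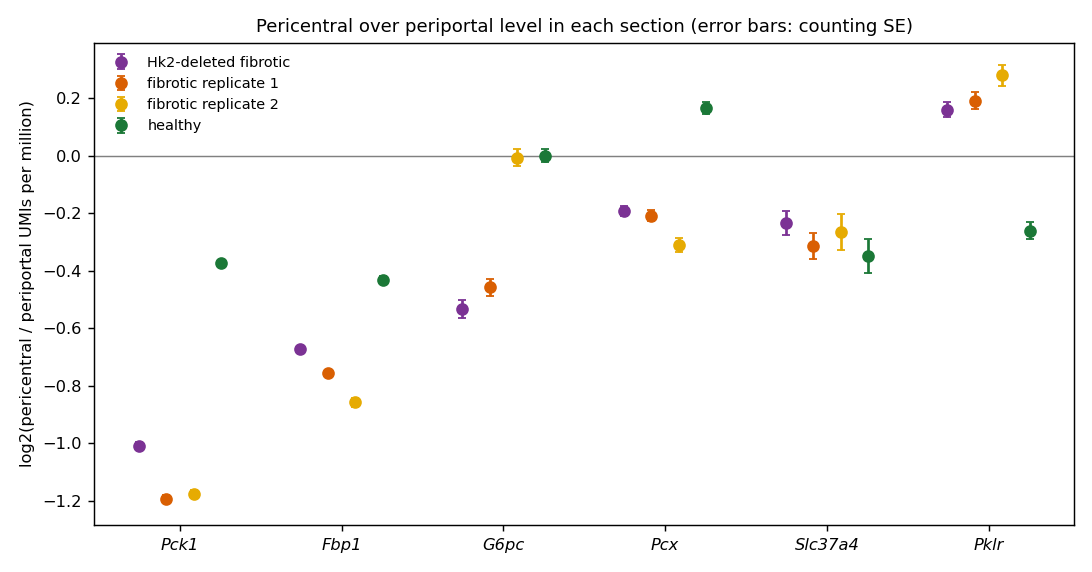
Each point is the log2 ratio of a gene's pericentral to periportal level (y axis, levels in CPM) in 1 section, with its counting SE, for the 6 genes along the x axis. The healthy points of Pcx (0.16) and Pklr (-0.26) lie on the other side of 0 from those of the 3 CCl4 sections, and the Slc37a4 points lie close together.

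The step between phosphoenolpyruvate and pyruvate is served by 2 opposed genes, Pck1 by way of oxaloacetate and Pklr directly. The log2 ratio of Pck1 to Pklr UMIs, whose absolute value depends on the probes, was 1.68 in the pericentral and 2.85 in the periportal zone of the Hk2-deleted section. In fibrotic replicate 1 it was 1.53 and 2.92, and in fibrotic replicate 2 it was 2.13 and 3.59. In the healthy section it was 2.43 and 2.55. The ratio was nearly level across the healthy lobule and changed by over 1 log2 unit across each CCl4 lobule.

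Each outer zone was also compared between the 2 fibrotic sections and the healthy one. In the pericentral zone 0 of 6 members passed, against 17.7% of 13131 genes. Pck1 was at -0.91 ± 0.38 (edgeR, adjusted p = 0.134), G6pc at -1.02 ± 0.38 (adjusted p = 0.101) and Pcx at -0.63 ± 0.26 (adjusted p = 0.136). With narrower outer zones, cut at 5 parts in place of 3, these 3 passed, at -1.07, -1.11 and -0.71 (adjusted p = 0.00122, 6.1e-05 and 0.0228). The share of all genes called with those narrower zones is not reported here, so these passes may not be particular to the members. Without fibrotic replicate 1, in the fit of the other CCl4 sections, 0 passed, with Pck1 at -0.79 (adjusted p = 0.106). In the periportal zone 0 of 6 members passed, against 3.52% of 13058 genes. Pklr was at -0.73 ± 0.25 (adjusted p = 0.156) and G6pc at -0.71 ± 0.30 (adjusted p = 0.249), while Pck1 was at 0.03 ± 0.45. In spots 3 or more steps from collagen-rich spots 0 of 6 passed between the fibrotic sections and the healthy one, against 9.76% of genes, with Pklr at -0.68 ± 0.27 (adjusted p = 0.135) and G6pc at -0.69 ± 0.33 (adjusted p = 0.208). Without fibrotic replicate 1, 0 passed in the periportal zone and 0 in distant spots.

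Distance from scar was then measured in the 3 CCl4 sections. Collagen-rich spots are the 10 percent of spots in a section with the largest share of Col1a1, Col1a2 and Col3a1 UMIs, and distant spots lie 3 or more steps away. All 6 members were lower in collagen-rich than in distant spots, where 22.7% of the 12842 genes tested were called lower and 46.0% in either direction. In collagen-rich and distant spots, Pck1 had 831 and 1468 CPM in the Hk2-deleted section, 689 and 1298 in fibrotic replicate 1, and 1042 and 2235 in fibrotic replicate 2. It was lower in collagen-rich spots of all 3 sections, with a log2 fold change of -1.30 ± 0.07 (edgeR, adjusted p = 5.45e-09). Fbp1 had 1151 and 1860, 1042 and 1617, and 1129 and 1964 in the same order, with -1.06 ± 0.06 (adjusted p = 1.74e-08). G6pc had 138 and 234 in the Hk2-deleted section, 161 and 235 in fibrotic replicate 1, and 303 and 344 in fibrotic replicate 2, with -0.85 ± 0.09 (adjusted p = 2.46e-06). The groups did not overlap for Fbp1, but they did for G6pc, whose level was higher throughout in fibrotic replicate 2. Slc37a4 was at -0.71 ± 0.07 and Pcx at -0.64 ± 0.06 (adjusted p = 2.28e-06 and 9.98e-07). Without fibrotic replicate 1 all 6 members were again called lower, in a fit whose share of all genes called is not reported here.

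Pklr had the smallest fitted difference of the 6, -0.29 ± 0.07 (edgeR, adjusted p = 0.0032). It had 248 and 267 CPM in collagen-rich and distant spots of the Hk2-deleted section, but 247 and 227 in fibrotic replicate 1 and 253 and 224 in fibrotic replicate 2. On total UMIs its log2 fold change was 0.06 (adjusted p = 0.444), where the median of all genes was 0.36. Scaled to hepatocyte markers it was 0.37 (adjusted p = 0.000276), where that median was 0.68 and 11380 of 13077 genes were called. Pklr thus lay below the typical gene on each of the 3 scales. All 10 hepatocyte markers were also called lower in collagen-rich spots, with a median of -0.68. Scaled to them, Pck1 and Fbp1 were still called lower, at -0.63 and -0.40, and G6pc, Slc37a4 and Pcx did not pass. Summed markers of stellate cells and fibroblasts were 5244 CPM in collagen-rich spots, against 683 in distant ones, in the Hk2-deleted section, 4832 against 1229 in fibrotic replicate 1, and 2922 against 631 in fibrotic replicate 2. Their part in the result was not tested.

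Collagen-rich spots also lay mostly in the pericentral zone, 69.2% of them in the Hk2-deleted section and 69.0% and 76.0% in fibrotic replicates 1 and 2. Within the pericentral zone alone all 6 members were lower in collagen-rich spots, Pck1 at -0.80 and Pklr at -0.32, where 3642 of 11934 genes were called in either direction. The periportal zone held few collagen-rich spots, 31 in the Hk2-deleted section and 22 and 9 in fibrotic replicates 1 and 2. Within it 5 members were lower, Pck1 at -0.57 and Fbp1 at -0.56, and Pklr was at -0.30 (edgeR, adjusted p = 0.0827). In that fit 1483 of 11550 genes were called. In the healthy section the same rule picks spots with far less collagen, and Pck1 had 1514 CPM there, against 1718 in distant spots. G6pc, lower at collagen-rich spots in each CCl4 section, had 465 there in the healthy section, against 390 in distant spots.

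Spots next to collagen-rich ones were compared with distant spots to see how far the difference reached. There 5 of 6 members were lower, against 7.09% of 12914 genes called lower and 14.4% in either direction. Of the 10 hepatocyte markers, 9 were also called lower, with a median of -0.20, against a median of -0.24 for the members. The log2 fold change was -0.50 ± 0.05 for Pck1, -0.40 ± 0.04 for Fbp1, -0.25 ± 0.05 for Slc37a4, -0.24 ± 0.04 for G6pc and -0.22 ± 0.04 for Pcx (edgeR, adjusted p between 5.87e-08 and 0.000431). Pklr was at -0.04 ± 0.04 (adjusted p = 0.622). Without fibrotic replicate 1 the same 5 were called, but the share of all genes called in that fit is not reported here. Within the pericentral zone 4 passed, Pck1 at -0.25, and 311 of 11615 genes were called. Within the periportal zone 0 of 6 passed, with Pck1 at -0.17 (adjusted p = 0.297), and 118 of 11697 genes were called. The difference between collagen-rich and distant spots did not pass for any of the 6 members between the Hk2-deleted and the fibrotic sections, against 0.520% of 13274 genes (edgeR; DESeq2 called 0 genes, and 911 had an unadjusted p under 0.05). G6pc came nearest, at -0.43 ± 0.14 (adjusted p = 0.353).

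**Figure D4:**
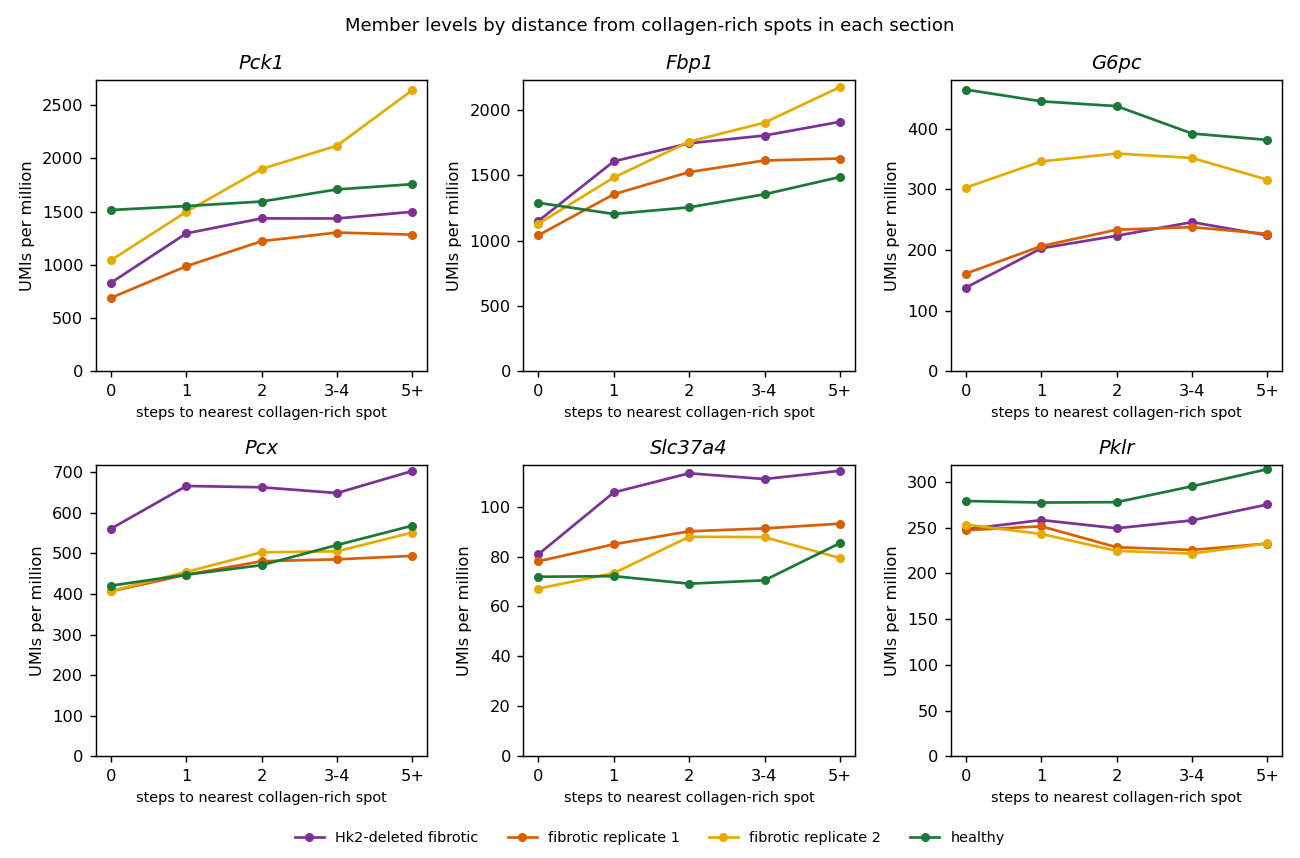
Each panel shows 1 gene, with its level in CPM (y axis) by steps on the spot grid to the nearest collagen-rich spot, 0 being those spots. Lines are single sections. Pck1 and Fbp1 are lower at 0 steps than far away in the 3 CCl4 sections, Pck1 in fibrotic replicate 2 with 1042 at 0 steps, and Pklr at 0 steps lies between 247 and 253 in them.

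**Figure D5:**
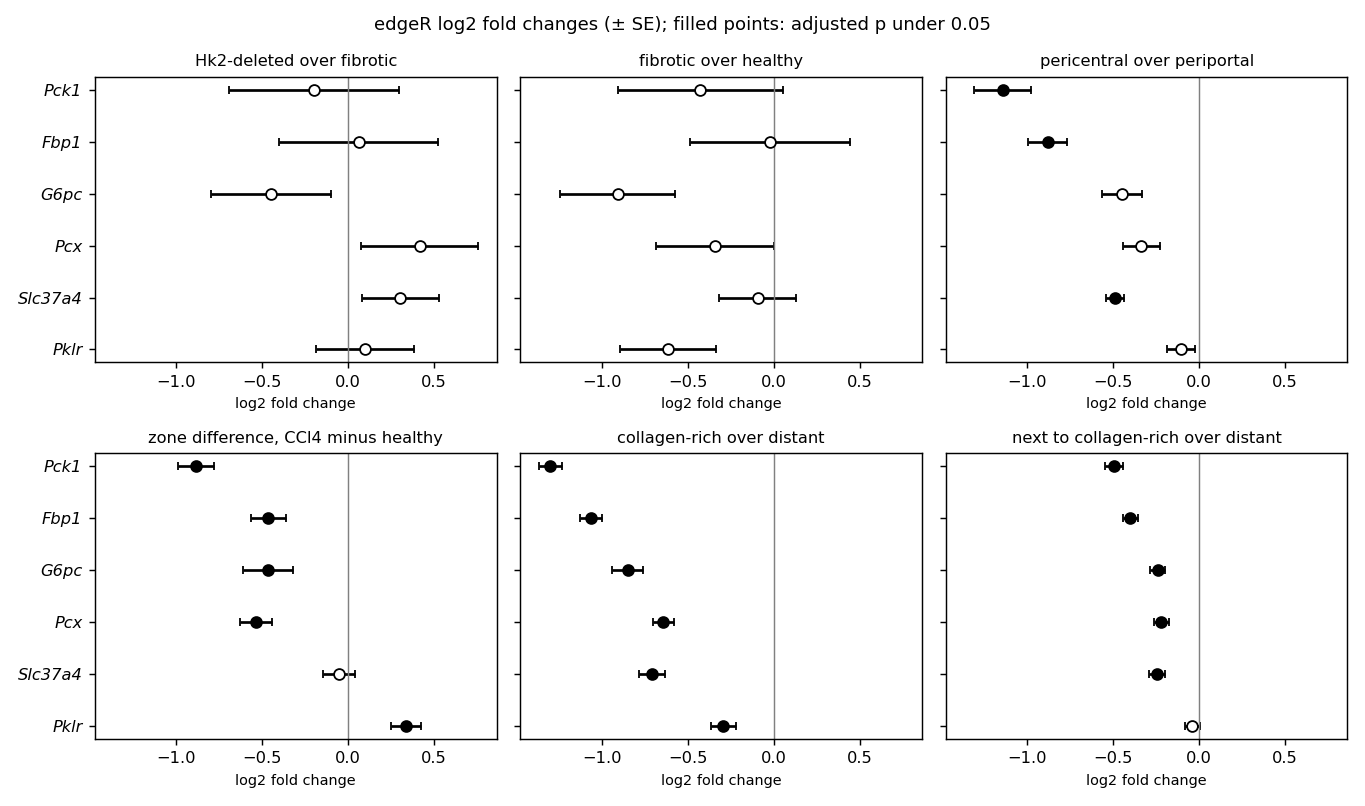
Each panel is 1 edgeR comparison, with the log2 fold change (x axis) and its SE for the 6 genes (y axis); filled points passed the test at an adjusted p under 0.05. The panels of Hk2-deleted over fibrotic and fibrotic over healthy hold open points only, and the panel of collagen-rich over distant spots holds 6 filled points, all below 0.

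The genes around the members gave context. In whole fibrotic against healthy sections, where 13.7% of all genes were called, 20 of 23 genes that feed carbon into the route were tested, and 1 was called higher and 1 lower. Pck2, the mitochondrial isoform of Pck1, was higher by 1.79 ± 0.21 (edgeR, adjusted p = 8.32e-06), and Slc38a2, an amino acid transporter, was lower by -1.47 ± 0.26 (adjusted p = 0.000629). Of 9 genes of the opposing glycolytic steps, 1 was called higher and 3 lower. Among the lower ones were Pfkfb1 and Pfkfb3, which make and remove fructose-2,6-bisphosphate, an inhibitor of Fbp1, at -1.29 ± 0.20 and -1.36 ± 0.27. Of 18 genes of glucagon, cAMP and glucocorticoid control, 0 were called higher and 3 lower, a share near that of all genes, with Igfbp1 at -2.23 ± 0.35. Of 12 genes of insulin and carbohydrate control, 1 was called higher and 5 lower, among them Nr0b2 at -1.91 ± 0.20, Irs2 at -1.64 ± 0.19 and Fasn (fatty acid synthase) at -1.56 ± 0.28. None of the 5 tested enzymes shared with glycolysis passed, and the median of all genes was near 0.

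In the zone by treatment test, 11 of 19 tested genes of carbon entry had a more negative pericentral minus periportal difference in the CCl4 sections and 0 a more positive one, against 10.2% and 7.83% of all genes and 4 and 0 of the 10 hepatocyte markers. Got1, the cytosolic aspartate aminotransferase, was at -0.90 ± 0.09 and Tat, tyrosine aminotransferase, at -0.82 ± 0.09. Of the 18 control genes 6 were called lower, with Klf15, a glucocorticoid-induced transcription factor, at -0.61 ± 0.09. Pkm, the pyruvate kinase of most cells other than hepatocytes, was more positive by 0.80 ± 0.15, and Fasn by 0.39 ± 0.11. Over all sections Ppargc1a, a coactivator of gluconeogenic genes, was lower pericentrally, at -0.51 ± 0.11, and Pdk4, which shuts off pyruvate dehydrogenase, was higher, at 1.31 ± 0.11 (adjusted p = 0.0315 and 0.00139). In collagen-rich spots 15 of 20 genes of carbon entry were called lower and 1 higher, where 22.7% of all genes and all 10 hepatocyte markers were called lower, and Gcgr, the glucagon receptor, was lower by -0.69 ± 0.06.

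Likeness in pattern was measured as Pearson's r of log2 levels over 40 profiles, 10 score bins in each of 4 sections, among 2693 genes; profiles of a section share its library and depth. The genes most like Pck1 were Gnmt (r = 0.957), Slc7a2 (r = 0.954) and Kynu (r = 0.951), and those most like Fbp1 were Gas2, Asl and Apof (r = 0.968, 0.934 and 0.931). Pklr was most like Fasn (r = 0.829). With section means removed, every pair of the other 5 members had a positive r, 0.987 for Pck1 and Fbp1, and every pair with Pklr a negative one, -0.592 for Pck1 and Pklr. Before that step the signs were mixed, with Pck1 and Fbp1 at 0.743 and G6pc and Slc37a4 at -0.585. All these r pool the 4 sections. In the healthy section Pck1 and Pklr both fell from bin 1 to bin 10, from 2053 to 1331 CPM and from 340 to 270. Moran's I, the authors' deposited score of spatial clustering per section, was highest among the members for Pck1 in the 3 CCl4 sections, at 0.321 in the Hk2-deleted section and 0.304 and 0.390 in fibrotic replicates 1 and 2. In the healthy section the authors' deposited score was highest for Fbp1, at 0.333, with Pck1 at 0.208. Slc37a4 had the lowest deposited score of the 6 in every section, between 0.0154 and 0.0302.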

How the data were processed

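The deposited matrices hold UMI counts for each spot and gene from Space Ranger 2.0.0, per the file headers, and mm10 is named in the submitters' processing notes. The probe set was not used here. Moran's I, a score of spatial clustering per gene and section deposited by the authors, was taken as given. The members and gene lists were chosen with earlier results of these data known.

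Spots are not replicates, so counts were summed per section and spot class. edgeR 4.0.16 in R 4.3.3 was fitted on all genes with TMM scaling, filterByExpr and the quasi-likelihood test, and calls were made at an adjusted p (Benjamini-Hochberg) under 0.05. Whole-section, single-zone and distant-spot comparisons used 1 fit of 3 groups, in which the pair of fibrotic sections gives the 1 residual degree of freedom and the lone sections are assumed to vary like them. Comparisons of spot classes had section as a block. SE is the log2 fold change divided by the root of its F. Each section is 1 mouse.

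The lobule score is the mean z of log2(CPM + 1), within a section, of 8 pericentral landmarks (Cyp2e1, Cyp1a2, Oat, Slc1a2, Rhbg, Axin2, Lgr5, Gulo) minus that of 12 periportal ones (Cyp2f2, Hal, Sds, Ass1, Gls2, Hsd17b13, Ctsc, Aldh1b1, Pigr, Cdh1, Etnppl, Uroc1), split into 3 equal zones. Cyp2a5 was listed but not used here, and landmarks were left out of the zone fits. Saa3-rich spots had a neighbourhood mean of at least 100 CPM. Symbols that stand for more than 1 gene, 11 in all, were not named. Named genes were all 6 members, up to 3 called genes with the largest change per list (or the 2 most abundant where none was called), and the 3 genes most like each member among those with at least 50 CPM. A gene that this rule names is not reported here. On simulated counts the whole-section fit on 13945 genes recovered 57.6% of 2-fold and 93% of 4-fold changes. Those counts had the same dispersion for every gene and, apart from the changed genes, the same profile in each section. The recovery need not hold for genes that vary more between sections, such as Pck1, with a measured SE of 0.48 for fibrotic over healthy. Alternatives were DESeq2 1.42.0, other scalings, no filter on low counts, other zone and collagen rules, and leaving out sections, surface spots or Saa3-rich spots. Setting the CCl4 sections with Y-linked transcripts, or all 3, against the healthy one was added after seeing the data. Sequences came from RefSeq tables of GRCm38.p6. Images were not analysed here.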

Additional observations from a re-analysis of the deposited data

Results flagged for a closer look

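The zone by treatment term, which tests whether the pericentral minus periportal log2 difference differs between CCl4 and healthy sections, passed for 5 members, and a difference between groups of this kind is listed here for a closer look. Its value was -0.89 for Pck1, -0.46 for Fbp1, -0.47 for G6pc, -0.53 for Pcx and 0.34 for Pklr (edgeR). The plain log2 ratio of Fbp1 was -0.67 in the Hk2-deleted section, -0.76 and -0.86 in fibrotic replicates 1 and 2, and -0.43 in the healthy section. That of G6pc in fibrotic replicate 2 did not stand apart from the healthy section. The healthy side is 1 section in each case.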

How the results depend on the processing

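Sections could not be paired between groups, because the only group with more than 1 section is the fibrotic one. No groups therefore share 2 replicate numbers. Comparisons of spot classes were paired within each section, by the section block. There is 1 healthy and 1 Hk2-deleted section. Comparisons fitted with 3 groups, and the differences with Hk2 deletion, rest on the spread of 2 fibrotic sections, and leaving out either leaves values with no test. The CCl4 zone difference rests on the spread of the 3 CCl4 sections and was tested without each. Of 97 counts of members called, 82 stayed within 1.5 times the value reported. A count of 0 that stayed at 0 was taken as the same, and most comparisons called 0 members. The 82 therefore does not show how stable the positive calls were. Fibrotic over healthy in whole sections called 0 members, but 1 on total UMIs, 1 scaled to hepatocyte markers and 1 without the filter on low counts. Pericentral over periportal called 3, and between 1 and 5 when a section was left out. The CCl4 zone difference called 5, and 3 in DESeq2. Fibrotic over healthy in the pericentral zone called 0, but 2 on total UMIs, 2 without the filter and 3 with narrower outer zones. Scaled to hepatocyte markers, collagen-rich over distant called 3 in place of 6, the margin 3 in place of 5, and Hk2-deleted over fibrotic in distant spots 1 in place of 0. Within the periportal zone alone the margin called 0. Over all genes, fibrotic over healthy in whole sections called 1929, against 1034 in DESeq2 and 5139 scaled to hepatocyte markers. Pericentral over periportal called 1340, against 4037 on total UMIs, 10189 scaled to hepatocyte markers, 5244 without the healthy section and 136 to 260 without another section. The CCl4 zone difference called 2414, against 934 in DESeq2 and 1419 scaled to hepatocyte markers. Where no count over all genes is given for a setting, the members' count cannot be set against a share of all genes. For collagen-rich over distant, the median of all genes was 0.36 on total UMIs and 0.68 scaled to hepatocyte markers. Signs of member values turned as follows; the cause was not tested. On total UMIs, the sign turned, with Fbp1 at 0.30 and Slc37a4 at 0.24 for fibrotic over healthy in whole sections, Pklr at 0.092 for pericentral over periportal, and Slc37a4 at 0.077 for the CCl4 zone difference. Also turned were Fbp1 at 0.10 and Slc37a4 at 0.29 for fibrotic over healthy in the pericentral zone, Pcx at 0.15 for fibrotic over healthy in the periportal zone, and Pklr at 0.061 for collagen-rich over distant. The same held for Pklr at 0.071 for the margin over distant, Fbp1 at 0.024 for the Hk2 collagen difference, and Pck1 at 0.040 and Slc37a4 at 0.27 for fibrotic over healthy in distant spots. Further values were Fbp1 at 0.055 for Hk2-deleted over fibrotic in distant spots. Scaled to hepatocyte markers, the sign turned, with Pck1 at 0.14 and Fbp1 at 0.56 and Pcx at 0.24 and Slc37a4 at 0.49 for fibrotic over healthy in whole sections, Pck1 at 0.21 for Hk2-deleted over fibrotic in whole sections, and Pcx at 0.080 and Pklr at 0.31 for pericentral over periportal. The same held for Pcx at -0.058 and Slc37a4 at -0.068 for the Hk2 zone difference, Fbp1 at 0.27 and Slc37a4 at 0.45 and Pklr at 0.16 for fibrotic over healthy in the pericentral zone, and Pcx at 0.43 for fibrotic over healthy in the periportal zone. Further values were Pcx at 0.020 and Pklr at 0.37 for collagen-rich over distant, Pklr at 0.14 for the margin over distant, and Fbp1 at 0.023 for the Hk2 collagen difference. Also turned were Pck1 at 0.23 and Pcx at 0.094 and Slc37a4 at 0.44 for fibrotic over healthy in distant spots, and Pck1 at 0.069 and Fbp1 at 0.40 and G6pc at 0.037 for Hk2-deleted over fibrotic in distant spots. With the Y-linked CCl4 sections against the healthy one, the sign turned, with Fbp1 at 0.11 and Slc37a4 at 0.090 for fibrotic over healthy in whole sections, Slc37a4 at 0.12 for fibrotic over healthy in the pericentral zone, and Pcx at 0.16 for fibrotic over healthy in the periportal zone. Further values were Slc37a4 at 0.17 for fibrotic over healthy in distant spots. With all 3 CCl4 sections against the healthy one, the sign turned, with Slc37a4 at 0.016 for fibrotic over healthy in whole sections, Slc37a4 at 0.045 for fibrotic over healthy in the pericentral zone, and Pck1 at -0.079 and Pcx at 0.052 for fibrotic over healthy in the periportal zone. The same held for Slc37a4 at 0.096 for fibrotic over healthy in distant spots. With 5 percent of spots as collagen-rich, the sign turned, with Pklr at 0.014 for the margin over distant, Pck1 at -0.092 and Pcx at -0.16 for the Hk2 collagen difference, and Fbp1 at 0.049 for Hk2-deleted over fibrotic in distant spots. Without the filter on low counts, the sign turned, with Slc37a4 at -0.0061 for fibrotic over healthy in the periportal zone, and Pcx at -0.0061 for the Hk2 collagen difference. Within the pericentral zone alone, the sign turned, with Pck1 at -0.013 and Pcx at -0.013 for the Hk2 collagen difference. Within the periportal zone alone, the sign turned, with Fbp1 at 0.037 and Pcx at -0.18 and Slc37a4 at 0.16 for the Hk2 collagen difference. Without surface spots, the sign turned, with Fbp1 at 0.11 and Pcx at -0.0048 for the Hk2 collagen difference, and Slc37a4 at 0.019 for fibrotic over healthy in distant spots. Leaving out 1 section at a time gave Pklr values between -0.081 and 0.020 for the margin over distant, the positive one without the Hk2-deleted section. In DESeq2, the sign turned, with Fbp1 at 0.0077 for the Hk2 collagen difference. With a score from Cyp2e1 and Cyp2f2 alone, the sign turned, with Pklr at 0.027 for the Hk2 zone difference.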
